A study of Mus musculus with 6 samples.

Results

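The genes described here take iron into intestinal epithelial cells, store it, pass it on to the blood and sense its level inside the cell. They were chosen by name: Cybrd1, Slc11a2 and Tfrc for uptake, Fth1 for storage, Slc40a1 and Heph for export, and Aco1 and Ireb2 for regulation. All 8 were rows of a table of 24930 genes, and all 8 averaged 1 unit or more across the libraries, the level set for testing. Messenger RNA was measured by poly-A selected RNA-seq in mouse primary crypt epithelium, the cells lining the crypts of the intestine. The 6 libraries form groups of 3. β-catenin GOF/+ crypts (below GOF/+) carried 1 mutant allele of the β-catenin gene, of the gain-of-function kind. They were taken at day 4 after induction of that allele. Control crypts were the other group, and day 4 is given for them too. β-catenin carries the WNT signal to the nucleus. The sources used here give no strain, age, intestinal segment or driver of the induction, nor whether each library is a different animal, so a p-value here speaks only of the spread among libraries, which may be technical.

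Dietary iron is reduced at the brush border by the reductase encoded by Cybrd1, enters through the ferrous iron importer encoded by Slc11a2, and leaves through ferroportin, encoded by Slc40a1, with the help of the ferroxidase hephaestin. Absorption takes place mainly in mature enterocytes of the duodenum, while dividing crypt cells take iron from the blood through the transferrin receptor, encoded by Tfrc. The iron regulatory proteins, encoded by Aco1 and Ireb2, bind hairpins called iron responsive elements when iron is scarce. Binding before the coding region blocks translation, and binding after it protects the transcript from decay, so the RNA values here do not measure the protein of a gene with a hairpin before its coding region.

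Hairpins of this kind were found in 4 of the 8 genes. They are shown because their place, before or after the coding region, is tied to translation or to decay of the transcript. Binding of the iron regulatory proteins in these crypts was not measured. The letters searched on the transcript strand were CNNNNNCAGTGN, followed by 5 bases that pair with the 5 bases before the loop, with 1 unpaired base allowed on the 3′ side. G-T pairs were counted as pairs. Capitals mark the bulged C and the loop. Sequences are DNA letters of GENCODE M21 transcripts on GRCm38.
Fth1 5′ UTR, chr19:9982732-9982760, + strand: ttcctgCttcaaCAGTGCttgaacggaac
Slc40a1 5′ UTR, chr1:45925465-45925493, - strand: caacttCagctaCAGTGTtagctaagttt
Tfrc 3′ UTR, chr16:32631219-32631247, + strand: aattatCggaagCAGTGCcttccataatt
Tfrc 3′ UTR, chr16:32631598-32631626, + strand: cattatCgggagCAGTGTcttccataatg
Tfrc 3′ UTR, chr16:32631663-32631691, + strand: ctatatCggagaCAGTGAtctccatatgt
Tfrc 3′ UTR, chr16:32631710-32631738, + strand: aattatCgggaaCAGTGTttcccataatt
Slc11a2 3′ UTR, chr15:100395152-100395181, - strand: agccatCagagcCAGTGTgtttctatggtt
Tfrc held 4 such hairpins and the other 3 genes 1 each. The Slc11a2 hairpin was the 1 with an unpaired base, and it is given from 1 of the 2 coding transcripts of this gene that were searched. The same hairpin was listed only once per gene, so whether the other transcript also holds it is not known here. With the longest coding transcript of each gene, the same search found a hairpin in 0.252% of 20262 5′ UTRs and in 1.54% of 20811 3′ UTRs. Cybrd1, Heph, Aco1 and Ireb2 held no match of the letters and the pairing together in the annotated UTRs searched. The letters alone were in 7092 of the 20811 3′ UTRs, so these genes may still hold them.

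Values are in the deposited units, an abundance that the authors had normalized, with the libraries on a common scale. The lowest values fell in proportion to transcript length (slope of -0.988 on log scales), so levels of different genes are compared per length. Library totals ranged from 645225 to 1268771 units and reads per unit, relative to control replicate 1, spanned 0.883 (GOF/+ replicate 3) to 1.43 (control replicate 3); absolute depth is unknown. Ctnnb1, the β-catenin gene, had 261 ± 24.4 units in GOF/+ and 256 ± 15.1 units in control libraries (mean ± SD, n = 3 each), a value that does not separate the mutant allele. The summed level of 7 epithelial markers was 4746 to 6190 units in GOF/+ and 4236 to 5133 units in control libraries. That of 9 stromal markers was 20.0 to 43.6 units in GOF/+ and 4.97 to 8.10 units in control libraries. All 9 were higher in every GOF/+ library than in every control library. Of the 9 only 6 reached the level for testing, and 8.34% of all genes tested separated in this direction. GOF/+ replicate 3 stood apart from the other GOF/+ libraries, with the highest enterocyte, macrophage and stromal marker sums and the lowest stem cell sum (145 units, against 680 and 902 units in GOF/+ replicates 1 and 2 and 610 to 1422 units in control libraries). Control replicate 1 also stood apart. Its sum of 6 Paneth cell markers stood highest: the sum was 31404 to 140006 units in GOF/+ libraries, against 321941, 155818 and 84736 units in control replicates 1 to 3. Alpha-defensin genes, which Paneth cells express, took 11.1% to 37.4% of the units in GOF/+ libraries, against 49.9%, 34.5% and 24.8% in control replicates 1 to 3. All 6 Paneth differences were negative, with a median of -1.28 on the log2 scale, and 0 of the 6 passed the test in limma. The part of either library's makeup in the iron gene values was not tested. By Xist and Y-linked genes, 1 GOF/+ and 2 control libraries were male and the others female. In these bulk samples fewer cells of a type and less RNA per cell cannot be told apart.

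Between β-catenin GOF/+ and control crypts, none of the 8 iron genes passed the test. In limma with Benjamini-Hochberg adjustment over 11837 genes, 0 of the 8 had an adjusted p under 0.05, where 0.0169% of all genes tested did (2 genes), and 0 of the 8 had an unadjusted p under 0.05, where 8.31% did. The smallest adjusted p was 0.613, for Heph. Values of the groups overlapped for all 8, whereas the groups did not overlap for 16.7% of all genes tested, 8.34% with every GOF/+ value higher and 8.37% with every GOF/+ value lower. On the log2(units + 1) scale, 3 genes had a positive and 5 a negative difference, with a median of -0.14 against -0.02 over all genes tested. In order of mean level over all libraries the genes stood as Fth1 (955 units), Tfrc (82.0), Aco1 (53.1), Heph (49.5), Ireb2 (24.8), Slc11a2 (19.5), Cybrd1 (2.48) and Slc40a1 (1.86). The order of neighbours held in all 6 libraries except for Aco1 over Heph, Ireb2 over Slc11a2 and Cybrd1 over Slc40a1, which each held in 5 of 6.

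**Figure D1:**
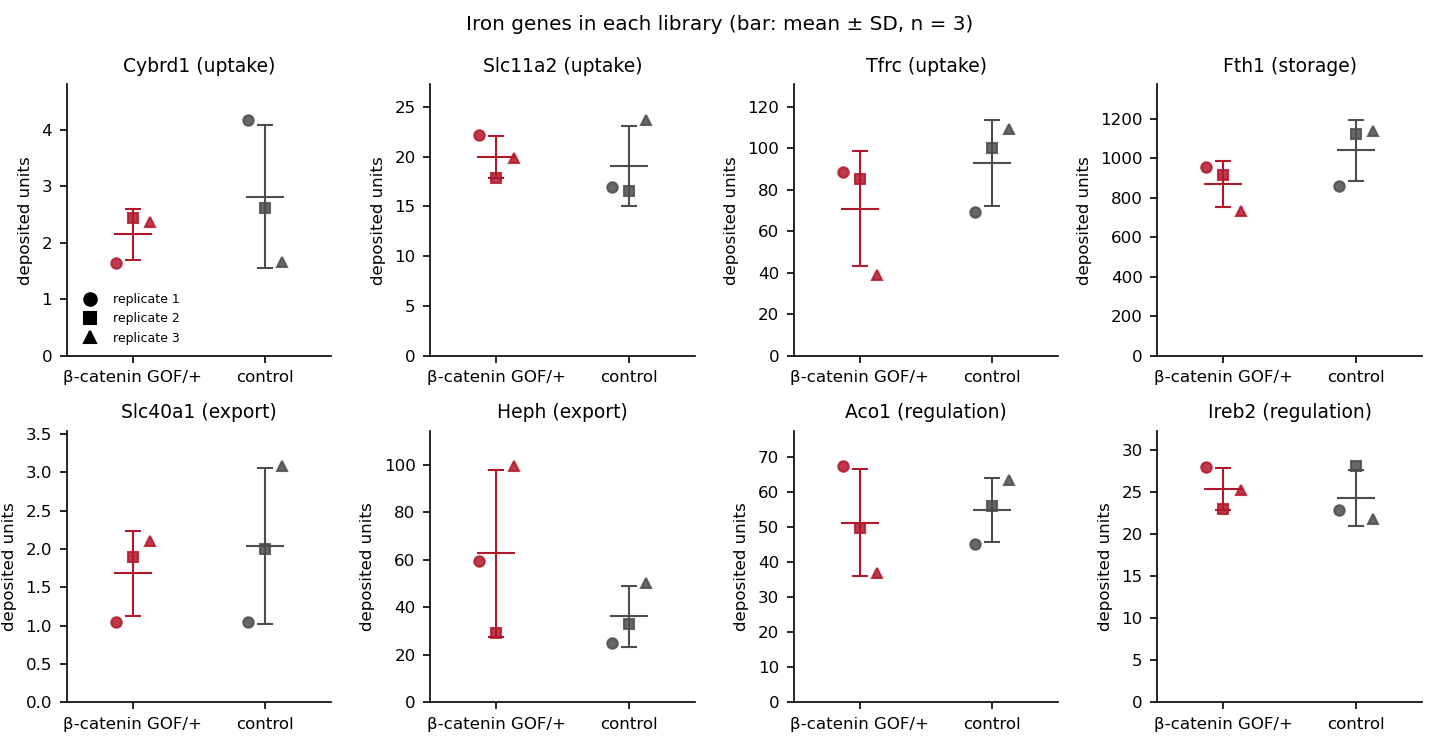
Level of each of the 8 iron genes in deposited units (linear axes that start at 0) in β-catenin GOF/+ libraries on the left and control libraries on the right; symbols give the replicate number and bars the mean ± SD of 3 libraries. The groups overlap in every panel, and Heph has the widest span, with 99.3 units in GOF/+ replicate 3 and 25.2 units in control replicate 1.

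Neither gene of apical entry passed the test, and the reductase gene was low in all libraries. Slc11a2, the importer of ferrous iron at the brush border and in endosomes, had 22.1, 17.8 and 19.9 units in GOF/+ replicates 1 to 3, against 17.0, 16.5 and 23.7 units in control replicates 1 to 3. The lowest and the highest library were both controls, and the log2 difference was 0.08 (95% interval of -0.35 to 0.50, adjusted p = 0.875 in limma). Cybrd1 had 1.64, 2.44 and 2.36 units in the GOF/+ set, against 4.17, 2.61 and 1.66 units in the control set. Its highest value lay in control replicate 1 and the other 5 libraries fell within 1.64 to 2.61 units, with a log2 difference of -0.23 (-0.88 to 0.41, adjusted p = 0.735 in limma). Without control replicate 1 that difference was 0.01, and with array weights, which give less weight to more variable libraries, it was -0.56.

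The segment from which the crypts came is not given, and markers of segments were therefore read beside Cybrd1. The summed level of 6 duodenal markers was 36.4 to 52.4 units in GOF/+ and 38.8 to 53.7 units in control libraries, most of it from the transcription factor gene Gata4. That of 5 ileal markers, led in the GOF/+ libraries by the bile acid binding protein gene Fabp6, was 250, 449 and 1173 units in GOF/+ replicates 1 to 3, against 216, 63.2 and 138 units in control replicates 1 to 3. The ileal sum was thus higher in every GOF/+ library than in every control library, and its part in the values of the iron genes was not tested. Of the 6 duodenal markers only Gata4 and Onecut2 reached the level for testing. Gata4 overlapped between the groups, with a log2 difference of -0.15. Onecut2 was lower in every GOF/+ library than in every control library, as were 8.37% of all genes tested. Its log2 difference was -0.77, and it did not pass the test (adjusted p = 0.589 in limma).

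Tfrc, the receptor through which cells take up transferrin-bound iron, had a lower mean in the GOF/+ libraries, and most of that difference rested on 1 library. It had 88.4, 85.4 and 39.2 units in GOF/+ replicates 1 to 3, against 69.5, 100 and 109 units in control replicates 1 to 3. GOF/+ replicate 3 was the lowest library, and the other GOF/+ values fell between the control values. The log2 difference was -0.45 (-1.27 to 0.37, adjusted p = 0.635 in limma), without GOF/+ replicate 3 it was -0.07, and with array weights it was 0.02. In the same library the summed level of 8 proliferation genes was lowest, at 240 units, against 383 and 525 units in GOF/+ replicates 1 and 2 and 386 to 566 units in control libraries; the part of proliferation in the value was not tested. Erythroid markers, which belong to a cell type rich in this receptor, summed to 12.1 to 26.1 units in GOF/+ and 8.0 to 39.6 units in control libraries, and their part in the value was not tested.

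Ferritin stores iron in a shell of heavy and light chains, the heavy chain being the ferroxidase. Fth1, the heavy chain gene and the most abundant of the 8, stood above 99.6% of all genes in the table. It had 957, 917 and 735 units in GOF/+ replicates 1 to 3, against 862, 1122 and 1136 units in control replicates 1 to 3. Control replicate 1 lay among the GOF/+ values, and the log2 difference was -0.26 (-0.80 to 0.29, adjusted p = 0.672 in limma). Without control replicate 1, Fth1 and Tfrc were each lower in every GOF/+ library than in the remaining control libraries, and neither passed the test. Groups with fewer libraries separate more easily, and the share of all genes that separated with this library left out was not computed.

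The light chain gene Ftl1, which is outside the 8 genes, stood the other way. It had 808, 858 and 1247 units in the GOF/+ set, against 679, 552 and 623 units in the control set. Every GOF/+ value lay above every control value, but the gene did not pass, with a log2 difference of 0.63 (0.06 to 1.20, adjusted p = 0.589 in limma). The ratio of Fth1 to Ftl1, computed after both had been seen and given without a test, was 1.18, 1.07 and 0.590 in GOF/+ replicates 1 to 3, against 1.27, 2.03 and 1.82 in control replicates 1 to 3. The sum of both chains was 1841 ± 122 units in GOF/+ and 1658 ± 110 units in control libraries (SD, n = 3 each). Ftl1 carried a hairpin of the same kind before its coding region, shown because it is the counterpart of the Fth1 hairpin.
Ftl1 5′ UTR, chr7:45459779-45459807, - strand: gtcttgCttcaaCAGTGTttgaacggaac
Processed copies of both chains are annotated in GENCODE M21 and are not rows of the table, so reads from them could count toward either gene and the values are uncertain to that extent.

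**Figure D2:**
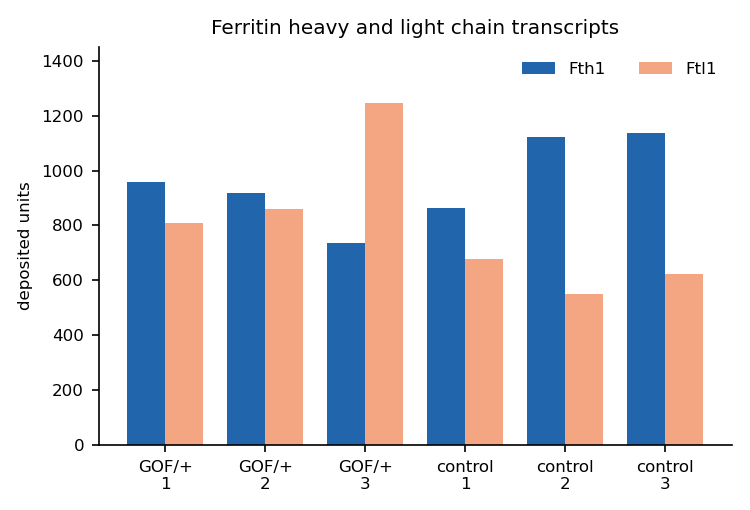
Deposited units of Fth1 (blue) and Ftl1 (orange) in each library, β-catenin GOF/+ replicates 1 to 3 on the left and control replicates 1 to 3 on the right, with single values and no error bars. Fth1 is the taller bar in 5 of 6 libraries, and in GOF/+ replicate 3 Ftl1 is the taller, at 1247 against 735 units.

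The log2 ratio of Tfrc to Fth1, whose hairpins lie at opposite ends of the transcript, was -3.44, -3.42 and -4.23 in GOF/+ replicates 1 to 3, against -3.63, -3.49 and -3.38 in control replicates 1 to 3. All libraries but GOF/+ replicate 3 lay within -3.63 and -3.38. The mean difference of the ratio was -0.20, and without GOF/+ replicate 3 it was 0.07.

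Of the export genes, ferroportin was near the floor for testing, and hephaestin had the largest difference of the 8 genes with all 6 libraries. Slc40a1 had 1.05, 1.90 and 2.10 units in GOF/+ replicates 1 to 3, against 1.05, 2.00 and 3.08 units in control replicates 1 to 3. The lowest values of the groups were alike, and the log2 difference was -0.15 (-0.86 to 0.56, adjusted p = 0.858 in limma). Macrophages, which also express ferroportin, had 10 markers whose sum was 19.5 to 69.7 units in GOF/+ and 12.9 to 31.4 units in control libraries, with the highest sum in GOF/+ replicate 3. The macrophage marker Vsig4 was at 0 in every control library and in GOF/+ replicate 2, with 0.11 and 0.06 units in GOF/+ replicates 1 and 3. Of the 10 markers 6 reached the level for testing, and 4 of these were higher in every GOF/+ library than in every control library. Of all genes tested 8.34% were. Adgre1, below the level for testing, was also higher in every GOF/+ library. The groups overlapped for Vsig4, Lyz2, Csf1r, Cd163 and Ptprc, and Ptprc had a log2 difference of -0.30. The part of these cells in the Slc40a1 values was not tested.

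Heph had 59.7, 29.3 and 99.3 units in GOF/+ replicates 1 to 3, against 25.2, 33.0 and 50.4 units in control replicates 1 to 3. GOF/+ replicates 1 and 3 lay above all controls and GOF/+ replicate 2 among them. The means were 62.7 ± 35.1 units in GOF/+ and 36.2 ± 12.9 units in control libraries (SD, n = 3 each), a log2 difference of 0.67 (-0.40 to 1.74, adjusted p = 0.613 in limma) that was within the spread between libraries. It was 0.26 without GOF/+ replicate 3 and 1.12 without GOF/+ replicate 2. The gene lies on the X chromosome in GRCm38. Its log2 difference was 1.02 among the males (1 GOF/+ and 2 control libraries) and 0.10 among the females (2 GOF/+ and 1 control libraries).

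The libraries high in Heph were those high in the summed level of enterocyte markers. The sum of 12 enterocyte markers was 13187, 5912 and 25695 units in GOF/+ replicates 1 to 3, against 3710, 5050 and 10328 units in control replicates 1 to 3. GOF/+ replicates 3 and 1 and control replicate 3 were, in that order, the 3 highest libraries for both, and control replicate 1 the lowest for both. Of the single markers 11 had a positive and 1 a negative log2 difference, and 0 of the 12 separated the groups. Sis did not follow the sum, with 286 units in GOF/+ replicate 3 against 590 units in control replicate 3. The 3 genes nearest to Heph among 8873 genes with a mean of at least 5 units, by root mean square distance of centred log2 profiles over the 6 libraries, were Myzap (0.06), Ms4a10 (0.08) and Slc7a9 (0.11), the last of which encodes an amino acid transporter of the brush border. Nearest to Tfrc were Dhrs4 (0.05), Nqo2 (0.09) and Cth (0.09), and nearest to Fth1 were Elovl7 (0.03), BC030870 (0.05) and Fdx1 (0.07). The part of the enterocyte share in the Heph values was not tested.

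**Figure D3:**
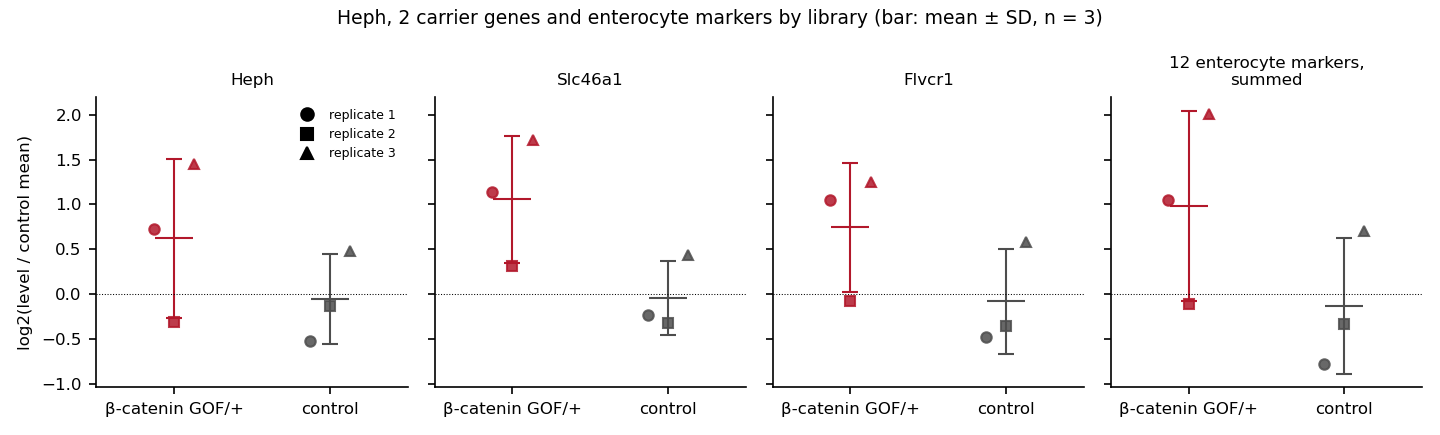
Level relative to the control mean, as log2 of the ratio, of Heph, the carrier genes Slc46a1 and Flvcr1 and the sum of 12 enterocyte markers, in β-catenin GOF/+ libraries (left in each panel) and control libraries; symbols give the replicate number and bars the mean ± SD of 3 libraries. GOF/+ replicates 3 and 1 stand highest in all 4 panels, and GOF/+ replicate 2 lies below the highest control in each. The 2 carrier genes were picked from the haem list and do not stand for it. Slc48a1 of the same list, not shown, was lower in every GOF/+ library than in every control library, with a log2 difference of -0.40.

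The iron regulatory protein genes varied less than Heph or Tfrc. Aco1, which encodes a protein that is either the cytosolic aconitase or an RNA-binding regulator, had 67.3, 49.7 and 36.9 units in GOF/+ replicates 1 to 3, against 45.3, 56.1 and 63.5 units in control replicates 1 to 3. The highest and the lowest library were both GOF/+, and the log2 difference was -0.13 (-0.71 to 0.46, adjusted p = 0.851 in limma). Ireb2, whose protein is degraded when iron is plentiful, had 27.9, 23.0 and 25.2 units in the GOF/+ set, against 22.9, 28.0 and 21.8 units in the control set. It was the steadiest of the 8 genes, with a 1.28-fold range over the 6 libraries and a log2 difference of 0.07 (-0.29 to 0.43, adjusted p = 0.872 in limma).

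Each sex held a group of 1 library, so the values within a sex are given without a test. The sign of the log2 difference turned between the males and the females for 4 of the 8 genes. It was -0.71 among the males and 0.35 among the females for Cybrd1, 0.38 and -0.31 for Slc11a2, 0.08 and -0.90 for Tfrc, and 0.41 and -0.56 for Aco1. The other 4 kept their sign, with -0.04 and -0.47 for Fth1, -0.27 and -0.44 for Slc40a1 and 0.14 and 0.13 for Ireb2, beside the values of Heph above.

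**Figure D4:**
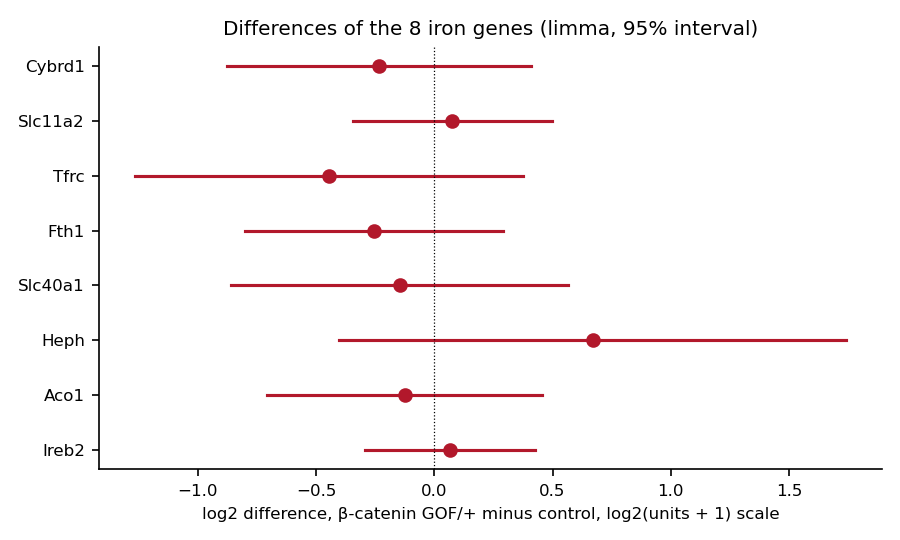
Log2 difference of each of the 8 iron genes, β-catenin GOF/+ minus control, on the log2(units + 1) scale, with its 95% interval from limma (n = 3 libraries each). All 8 intervals include 0, and the widest, that of Heph, runs from -0.40 to 1.74.

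Other genes of iron metabolism were read from 7 lists. Of 87 genes 86 were in the table and 74 had a mean of at least 1 unit; of these 0 passed the adjusted threshold in limma, and at an unadjusted p under 0.05 there were 8 with a higher and 1 with a lower level, together 12.2% against 8.31% of all genes tested. The groups did not overlap for 12 genes that were higher and 7 that were lower in the GOF/+ libraries, 25.7% of the 74 against 16.7% of all genes tested. All tested genes named below had an adjusted p of at least 0.589 in limma.

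Among 17 genes of haem synthesis, transport and breakdown, 7 had a positive and 10 a negative difference, with a median of -0.05. Slc46a1, a proton-coupled folate carrier first described as a haem carrier, had 19.3, 10.8 and 28.9 units in GOF/+ replicates 1 to 3, against 7.45, 6.98 and 11.8 units in control replicates 1 to 3. Control replicate 3 lay above GOF/+ replicate 2, and the log2 difference was 1.02 (0.17 to 1.86). Uros, an enzyme of haem synthesis, had 10.2, 10.0 and 9.15 units in GOF/+ crypts, against 13.9, 12.0 and 14.4 units in control libraries, without overlap. Of the genes chosen after their values were seen, Flvcr2, a relative of the haem exporter gene Flvcr1, had 1.90, 0.79 and 7.46 units in GOF/+ crypts, against 0.38, 0.16 and 0.31 units in control libraries, and the haem oxygenase gene Hmox1 had 0.76, 2.17 and 5.84 units, against 0.95, 0.18 and 0.53 units. GOF/+ replicate 3 was the highest library for both.

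Of the other uptake genes, 8 of 13 were tested, with 5 positive and 3 negative differences. Steap1, of the metalloreductase family, had 6.61 ± 1.07 units in GOF/+ and 4.71 ± 0.493 units in control libraries, without overlap, and Slc39a14, a carrier of zinc and of iron not bound to transferrin, had 46.6 ± 17.9 and 32.4 ± 6.36 units in the same order (SD, n = 3 each). Meltf, an iron-binding surface protein gene chosen after its values were seen, had 0.26, 0.12 and 15.9 units in GOF/+ libraries and at most 0.01 units in a control library. In the hepcidin and export list, the hormone gene Hamp was at 0 in GOF/+ replicates 1 and 2 and in control replicates 1 and 2, with 1.72 units in GOF/+ replicate 3 and 0.21 units in control replicate 3. Hamp2, the other hepcidin gene of that list, had 0, 0.21 and 0 units in GOF/+ replicates 1 to 3. Its values were 0.86, 0.28 and 0.20 units in control replicates 1 to 3, and neither gene reached the level for testing. Only Erfe, the gene of erythroferrone, and Hfe passed the level for testing in that list of 9, with 8.32 ± 1.55 and 2.40 ± 0.234 units in GOF/+ and 6.62 ± 2.11 and 2.07 ± 0.450 units in control libraries. The iron chaperone gene Pcbp2 had 111 ± 16.6 units in GOF/+ and 128 ± 10.9 units in control libraries.

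Differences of iron-sulfur cluster genes lay on both sides of 0. In the mitochondrial list of 17, 8 differences were positive and 9 negative: Glrx5 had 52.0 ± 6.68 units in GOF/+ and 39.6 ± 4.64 units in control libraries, and Isca1 had 40.0 ± 6.92 and 51.8 ± 4.45 units, both without overlap. In the list of 11 genes that control the iron regulatory proteins, by cytosolic cluster assembly or by degradation of the Ireb2 product, 9 were positive, with a median of 0.13. Ciapin1 had 10.9 ± 1.55 units in GOF/+ and 8.58 ± 0.586 units in control libraries, and Ciao2b had 52.7 ± 4.05 and 41.7 ± 6.17 units. Of the 2 with a negative difference, Ciao1, chosen after its values were seen, was lower in every GOF/+ library than in every control library. It had 10.8 ± 1.25 and 13.4 ± 1.54 units in the same order. Fbxl5, the iron-sensing adaptor that marks the Ireb2 product for degradation, had 32.0, 25.0 and 42.5 units in GOF/+ crypts, against 26.3, 30.6 and 32.2 units in control libraries.

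The hypoxia-inducible factor list was included because the factor encoded by Epas1 drives transcription of iron absorption genes in the duodenum, and because the hydroxylases that mark such factors need iron. Of 15 genes, 8 had a positive and 7 a negative difference, with a median of 0.07. Egln3, one of these hydroxylases, had 13.1, 7.32 and 22.5 units in GOF/+ replicates 1 to 3, against 5.84, 6.84 and 2.83 units in control replicates 1 to 3, a log2 difference of 1.25 (0.24 to 2.25). The glucose transporter gene Slc2a1 had 13.2, 13.3 and 20.4 units in GOF/+ crypts, against 11.0, 9.50 and 8.29 units in control libraries. Neither gene overlapped between the groups. Epas1, which also held a hairpin before its coding region in the search above, had 3.84, 2.38 and 6.41 units in GOF/+ crypts, against 2.73, 2.12 and 2.34 units in control libraries.

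**Figure D5:**
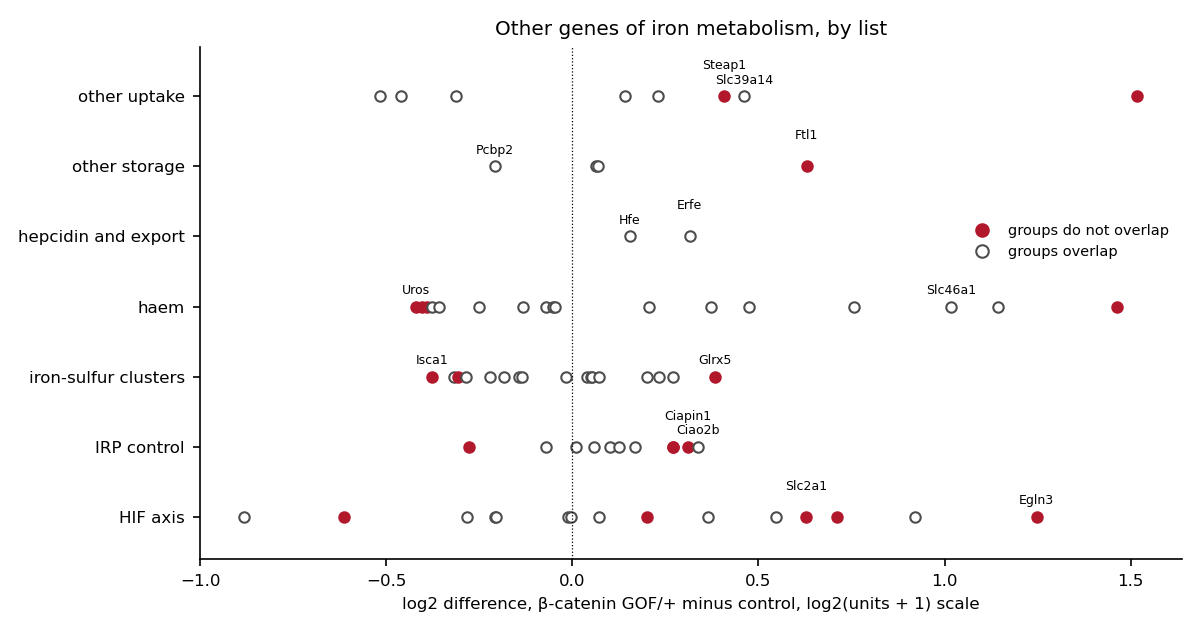
Log2 difference, β-catenin GOF/+ minus control on the log2(units + 1) scale, of the 74 tested genes in 7 lists of iron metabolism; filled points are genes whose groups do not overlap (19 of 74), and the names are the 2 genes of each list with the smallest p. Points lie on both sides of 0 in 6 of the 7 lists, and 0 of the 74 passed the adjusted threshold.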

How the data were processed

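RNA was extracted from 3 β-catenin GOF/+ and 3 control samples and libraries were made from poly-T purified, randomly primed RNA, per the labels' protocols. The authors deposited a normalized signal for each gene. The submitters' processing notes name the mm9 build, DESeq2 1.40.1 and kallisto 0.46.1, with no role or order given. The values are not counts, since 0% of the values above 0 are whole numbers. GOF/+ columns, named for a heterozygous exon change, were matched by replicate number; 0 value columns lacked a sample.

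Values were transformed to log2(value + 1), which understates changes of low genes, and the 11837 genes that averaged 1 unit or more were tested with limma 3.58.1 in R 4.3.3 (mean-variance trend, group alone, Benjamini-Hochberg adjustment at 0.05). A marker of another cell type is not reported here and was left out of its sum. The members and lists were chosen with earlier results of these data known. Genes named were the 8 members, the 2 of each pathway list with the smallest p, and the 3 nearest profiles of 3 members. Others are said to be chosen later, or were named for the hairpin or their role (Fbxl5, Epas1, Hamp, Hamp2). Flvcr1 and Slc48a1 of the haem list were outside these rules and were named with their values known. Single cell type markers were named beside their sums. Hairpins were searched in GENCODE M21 with Python 3.11.15. GRCm38 coordinates belong to that reference and not to the build of the files.

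Alternatives were pseudocounts of 0.1 and 5, a filter at 5 units or none, median-of-ratios or upper quartile rescaling, array weights, no trend, a replicate block, sex as a covariate and leaving out each library.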

Additional observations from a re-analysis of the deposited data

How the results depend on the processing

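Under the 16 alternatives 0 of the 8 iron genes passed the adjusted threshold in limma, and 0 of the 74 pathway genes did. Cybrd1 and Slc40a1 could not be fitted with the filter at 5 units. With array weights the log2 difference was 0.0153 for Tfrc and 0.307 for Aco1, turned from the negative values with equal weights, -0.563 for Cybrd1, 0.226 for Slc11a2, -0.0566 for Fth1, -0.323 for Slc40a1, 0.203 for Ireb2 and 0.816 for Heph. With these weights, 20 genes over the whole table were called higher and 7 lower, and the median of the hepcidin list was 0.0617; the cause was not tested. Leaving out 1 library at a time, the log2 difference ranged from -0.469 to 0.0110 for Cybrd1, -0.0127 to 0.235 for Slc11a2, -0.647 to -0.0701 for Tfrc, -0.385 to -0.139 for Fth1, -0.404 to 0.0929 for Slc40a1, 0.260 to 1.12 for Heph, -0.339 to 0.0855 for Aco1 and -0.00224 to 0.171 for Ireb2. Heph and Fth1 kept their direction in all 16. The count of iron genes whose groups did not overlap ranged from 0 to 2, with Heph higher without GOF/+ replicate 2, Tfrc and Fth1 lower without control replicate 1, Ireb2 higher without control replicate 2, and Cybrd1 lower and Slc11a2 higher without control replicate 3. The share of all genes whose groups did not overlap with a library left out was not computed. Over all genes, 0 to 2 were then called higher and 0 to 3 lower. List medians then ranged from -0.0139 to 0.298 for other uptake, 0.0436 to 0.108 for other storage, 0.168 to 0.332 for hepcidin and export, -0.128 to -0.0113 for haem, -0.0272 to 0.179 for the hypoxia-inducible factor list, -0.159 to 0.0557 for mitochondrial iron-sulfur genes, 0.0179 to 0.220 for control of the iron regulatory proteins, and the Tfrc to Fth1 ratio from -0.334 to 0.0688. Of the whole table, a pseudocount of 0.1 called 1 gene higher, a pseudocount of 5 called 1 higher and 0 lower, no trend 1 lower, and sex as a covariate 0 lower.

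Same-numbered libraries did not deviate together in every pair (correlations of -0.292, 0.333 and 0.325 for numbers 1, 2 and 3), so the numbers were not taken as pairs. With the replicate block 0 of the 8 iron genes and 0 genes over the whole table were called, with an adjusted p of 0.427 for Heph; 2 of 3 GOF/+ libraries correlated best with their own number. Without GOF/+ replicate 3 the difference of Ftl1 was 0.436 and that of Slc46a1 0.702. Absolute depth is unknown, and Cybrd1 and Slc40a1, at 1 to 4 units, are the lowest of the 8.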
